A study of Homo sapiens with 10 samples.

Results

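The 9 genes described here encode the parts of the hemidesmosome, the junction that fixes an epithelial cell to its basement membrane, and chains of laminin-332, the matrix protein that the junction holds on to. They were chosen by symbol, as the rows of LAMA3, LAMB3, COL17A1, ITGA6, ITGB4, CD151, DST, PLEC and LAD1 among the 26256 genes of the untreated libraries and the 55736 genes of the Nutlin-3a experiment. Each symbol was found once in each table, and all 9 genes passed the filter on low counts, as did 14376 and 13529 genes in all.

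In a basal epithelial cell, laminin-332 is assembled inside the cell from separate chains and laid down under it. The integrin made of the ITGA6 and ITGB4 chains binds it from the membrane, the transmembrane collagen encoded by COL17A1 strengthens the contact, and the plakins encoded by PLEC and DST tie the integrin and the collagen to keratin filaments. Breast myoepithelial and basal cells rest on the basement membrane through these junctions, and inherited loss of their components gives skin that blisters.

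MCF10A cells are human breast epithelial cells that grow without limit in culture but are not malignant. G12V cells are MCF10A cells that received the HRas oncogene with the G12V change by viral transduction together with a GFP vector and were then selected with hygromycin. The sources do not say that they were grown from a clone. According to the study, they first stopped growing and took up growth again after a few weeks. No vector or hygromycin is described for the MCF10A cells they were compared with. HRas, transduction, selection and time in culture thus cannot be told apart. RNA of 2 MCF10A and 2 G12V libraries, all untreated, was compared, and parental MCF10A cells given 10 µM Nutlin-3a, which frees p53 from MDM2, were compared with parental MCF10A cells given the vehicle DMSO, both for 4 h and with 3 libraries each.

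The untreated libraries held 21538593 to 23683975 counts and those of the Nutlin-3a experiment 15453226 to 17378734. HRAS rose from 65.9–72.6 CPM (counts scaled to library size, with TMM) in MCF10A to 515–631 CPM in G12V cells, and the p53 target MDM2 rose from 102–122 CPM in DMSO to 509–814 CPM in Nutlin-3a, as the labels have it. The summed level of 6 epithelial markers, of which 4 were down-regulated, was 4902–5905 CPM in MCF10A and 1361–1661 CPM in G12V cells. KRT5 made up most of this sum, with means of 4195 CPM in MCF10A and 1078 CPM in G12V cells. KRT8 and KRT18 were not DE, with log2 fold changes of 0.18 and -0.71. Sums of 7 fibroblast markers, of which LUM was up-regulated (at most 1 read in an MCF10A and 28 in a G12V library, log2 fold change 5.43, edgeR adjusted p = 0.0114), were 37.5–64.9 and 53.4–60.1 CPM, with COL3A1 at 0 counts in all 4 libraries, those of 4 endothelial markers 8.09–32.2 and 7.91–8.79 CPM, and those of 3 immune markers 18.0–37.0 and 21.7–39.6 CPM, with PTPRC and CD3E at 0 counts in both G12V libraries. Most of the fibroblast sum was DCN, with means of 41.8 CPM in MCF10A and 50.8 CPM in G12V cells. CD14 made up most of the immune sum, with means of 27.5 and 30.7 CPM. The part of these markers in the results was not tested. In bulk RNA, fewer cells with a transcript and less transcript per cell cannot be told apart.

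The junction's genes were mostly lower in G12V cells. Of the 9 genes, 5 were differentially expressed (DE), which here means that the adjusted p of edgeR's quasi-likelihood test was under 0.05 and the log2 fold change exceeded 0.5 in size, and all 5 were lower. They were LAD1, COL17A1, LAMA3, ITGA6 and DST. Among all genes tested 11.0% were DE and 5.95% were DE and lower. In 8 of the 9 genes, LAMB3 being the exception, both G12V libraries lay below both MCF10A libraries, as in 27.4% of all genes, and 54.8% of all genes did not overlap in either direction. The median log2 fold change was -1.93 over the 9 genes and -0.0011 over all tested genes. Summed over the 9 genes, the level was 8616 and 10882 CPM in MCF10A replicates 1 and 2 and 3747 and 6156 CPM in G12V replicates 1 and 2. The calls rest on MCF10A replicate 1, without which 0 of the 9 and 0 of all genes were DE in edgeR's test, the adjusted p of these 5 genes then lying between 0.0502 and 0.0997, while 2830 genes and 6 of the 9 had an unadjusted p under 0.05. The log2 fold changes of these 5 genes stayed between -10.31 and -1.35 whichever library was left out.

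**Figure D1:**
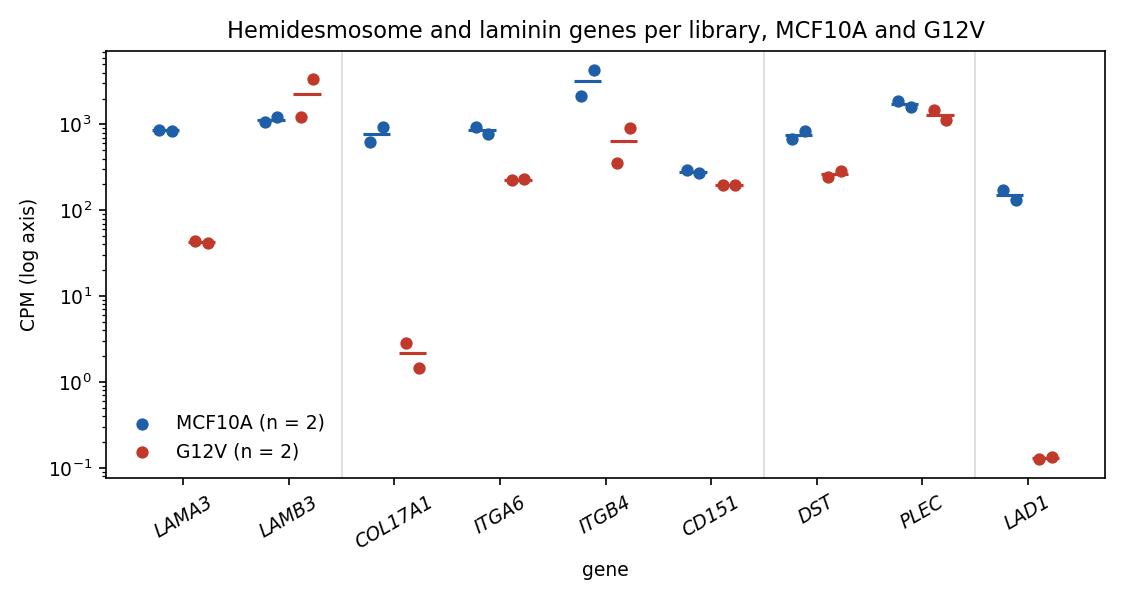
Level of each gene in CPM (log axis) in the 2 MCF10A libraries (blue) and the 2 G12V libraries (red), with a bar at the mean of each group and grey lines between the laminin chains, the transmembrane proteins, the plakins and LAD1. LAD1, at 131–172 CPM in MCF10A, and COL17A1, at 616–924 CPM, lie below 3 CPM in both G12V libraries, and LAMB3 is the gene with overlapping groups.

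Among the laminin chains, LAMA3 was down-regulated and LAMB3 was not DE. LAMA3, on chromosome 18 from 21269407 to 21535029 (hg19, plus strand), encodes the alpha chain, whose end carries the integrin-binding part. Its level was 870 and 829 CPM in the MCF10A libraries and 44.0 and 41.8 CPM in the G12V libraries, so that 5.05% of the MCF10A level was left. Its log2 fold change was -4.31 (SE 0.23, edgeR adjusted p = 0.000788). Replicates of a group differed by no more than 1.05-fold.

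LAMB3, on chromosome 1 from 209788218 to 209825820 (minus strand), encodes the beta chain. It had 1063 and 1210 CPM in MCF10A and 1209 and 3364 CPM in G12V replicates 1 and 2. G12V replicate 1 lay just under the higher MCF10A library and G12V replicate 2 far above the other 3 libraries. The log2 fold change of 1.01 (SE 0.49) did not pass the test (edgeR adjusted p = 0.274). It was 0.09 without G12V replicate 2 (adjusted p = 0.949) and 1.56 without G12V replicate 1 (adjusted p = 0.0381, DE), where the remaining G12V library was assumed to vary like MCF10A.

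Levels of LAMA3 and LAMB3 were set against each other per kb of annotated exon within each library. LAMB3 was 3.81 and 4.55 times as high as LAMA3 in the 2 MCF10A libraries and 85.8 and 251 times as high in the 2 G12V libraries. The exon lengths, 14.5 kb for LAMA3 and 4.65 kb for LAMB3, join all annotated transcripts and were the same in every library. The size of a ratio thus depends on which forms are expressed, which these counts do not show. The ratios are a description, since the smallest two-sided p of an exact permutation test is 0.333 with 2 libraries a group.

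The start regions of LAMA3 and LAMB3 are shown because these genes encode chains of 1 protein and did not change alike. RefSeq promoters (GRCh38.p14) were found for 6 of the 9 genes, in 11 start regions, each of which matched GRCh37 exactly at 1 place. The 250 bases before a start site are printed here 5′ to 3′ on the gene's strand. Capitals mark AP-1 letters (TGANTCA), E-box letters (CAGGTG or CACCTG) read by SNAI and ZEB factors, or letters of the p53 family decamer. The decamer is a half-site, and all were searched on both strands. The LAMA3 start lies 183577 bases inside the gene (chr18:21452734-21452983), and LAMB3 is shown at its innermost start (chr1:209824720-209824969) and its outermost start (chr1:209825771-209826020).
LAMA3: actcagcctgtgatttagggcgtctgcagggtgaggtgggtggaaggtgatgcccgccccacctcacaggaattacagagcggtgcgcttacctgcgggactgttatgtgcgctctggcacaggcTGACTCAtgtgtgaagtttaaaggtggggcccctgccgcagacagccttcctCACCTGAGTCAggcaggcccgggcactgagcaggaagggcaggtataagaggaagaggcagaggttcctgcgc
LAMB3 inner: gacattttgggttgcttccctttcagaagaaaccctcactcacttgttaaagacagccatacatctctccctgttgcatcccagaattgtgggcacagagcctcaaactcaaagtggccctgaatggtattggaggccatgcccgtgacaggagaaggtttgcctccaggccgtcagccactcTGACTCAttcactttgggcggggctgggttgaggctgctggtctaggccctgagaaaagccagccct
LAMB3 outer: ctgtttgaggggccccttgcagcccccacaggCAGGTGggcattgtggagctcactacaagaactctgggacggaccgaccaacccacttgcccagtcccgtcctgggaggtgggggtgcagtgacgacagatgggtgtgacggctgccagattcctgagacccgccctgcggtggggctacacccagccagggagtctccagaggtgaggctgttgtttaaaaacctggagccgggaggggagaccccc

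AP-1 letters stood 125 and 69 bases before the LAMA3 start, the latter run overlapping E-box letters that begin 73 bases before it. The inner LAMB3 start had AP-1 letters 67 bases before it, and the outer start had E-box letters 218 bases before it. Over the 300 bases from 250 before to 50 after the start, AP-1 letters were in 3 of the 11 regions and in 7.71% of 35116 RefSeq promoters, E-box letters in 4 of 11 and 20.6%, and the p53 family decamer in 1 of 11 and 6.63%. The LAMA3 and the inner LAMB3 start thus share AP-1 letters. A match of letters is no evidence of binding.

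Among the transmembrane proteins, COL17A1 fell the most. It encodes collagen XVII, the transmembrane collagen of the junction, and lies on chromosome 10 from 105791046 to 105845638 (minus strand). It had 616 and 924 CPM (13561 and 20972 reads) in MCF10A and 2.82 and 1.47 CPM (66 and 33 reads) in G12V cells, or 0.279% of the MCF10A level. Its log2 fold change of -8.48 (SE 0.48, edgeR adjusted p = 0.000788) was undercut by 0.32% of the tested genes.

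The 250 bases before its start (chr10:105845639-105845888) are shown since this gene fell by the largest factor among those with more than 3 reads in each library. They hold neither AP-1 nor E-box letters, and the capitals mark letters of the p53 family half-site, which begin 55 bases before the start.
COL17A1: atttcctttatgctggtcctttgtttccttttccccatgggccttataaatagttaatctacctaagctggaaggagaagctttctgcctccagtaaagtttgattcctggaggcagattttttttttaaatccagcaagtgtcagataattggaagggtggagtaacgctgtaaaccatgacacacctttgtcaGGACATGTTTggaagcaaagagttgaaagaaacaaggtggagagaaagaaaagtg

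The integrin chains fell less. ITGA6, the alpha chain, on chromosome 2 from 173292314 to 173371181 (plus strand), had 942 and 781 CPM in the MCF10A libraries against 223 and 229 CPM in the G12V libraries. The log2 fold change was -1.93 (SE 0.23, edgeR adjusted p = 0.00621). ITGB4, the beta chain whose long inner tail is bound by plectin, lies on chromosome 17 from 73717516 to 73753899 (plus strand). It had 2121 and 4279 CPM in MCF10A replicates 1 and 2 and 359 and 907 CPM in G12V replicates 1 and 2.

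ITGB4 therefore varied 2.02-fold between MCF10A replicates and 2.53-fold between G12V replicates, with replicate 2 the higher in each group, and the groups did not overlap. Its log2 fold change of -2.34 (SE 0.57) was larger than that of ITGA6 but missed the threshold (edgeR adjusted p = 0.0534). With DESeq2 or edgeR's exact test ITGB4 was DE, as it was in the quasi-likelihood test without MCF10A replicate 2 (log2 fold change -1.75, adjusted p = 0.0454) or without G12V replicate 2 (log2 fold change -3.16, adjusted p = 0.00791), but not without MCF10A replicate 1 (adjusted p = 0.153) or without G12V replicate 1 (adjusted p = 0.0662). Per kb of exon, ITGB4 was 2.22 and 5.41 times as high as ITGA6 in the MCF10A libraries and 1.59 and 3.91 times as high in the G12V libraries. The ratio thus differed more between replicates than between MCF10A and G12V cells. Within each replicate number it was lower in G12V cells, though the labels state no pairing.

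**Figure D2:**
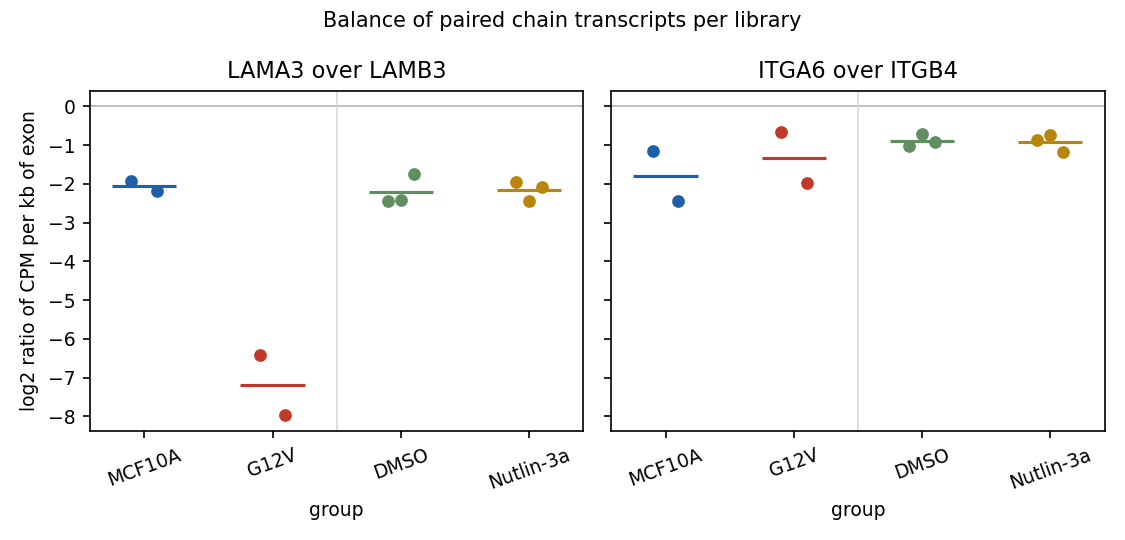
Log2 ratio of the CPM per kb of exon of LAMA3 to LAMB3 (left) and of ITGA6 to ITGB4 (right), each point 1 library and each bar the mean of its group. The 2 G12V libraries lie at -6.42 and -7.97 for LAMA3 to LAMB3, while the 8 other libraries, from 2 separately normalized tables, lie between -2.45 and -1.74, and for ITGA6 to ITGB4 the MCF10A and G12V libraries overlap.

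CD151, a tetraspanin that binds laminin-binding integrins, lies on chromosome 11 from 832952 to 838835 (plus strand). It had 291 and 272 CPM in the MCF10A libraries against 194 and 195 CPM in the G12V libraries, and its groups did not overlap. The log2 fold change of -0.53 (SE 0.18) did not pass the test (edgeR adjusted p = 0.132).

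The plakins differed from each other. DST, which encodes the plakin that links collagen XVII to keratin and lies on chromosome 6 from 56322785 to 56819426 (minus strand), had 673 and 843 CPM in the MCF10A libraries against 243 and 284 CPM in the G12V libraries. DST thus had a log2 fold change of -1.52 (SE 0.24, edgeR adjusted p = 0.0139). PLEC, which encodes plectin, on chromosome 8 from 144989315 to 145050913 (minus strand), had 1867 and 1613 CPM in the MCF10A libraries against 1472 and 1132 CPM in the G12V libraries. For PLEC the log2 fold change was -0.42 (SE 0.27), the smallest in size of the 9, and did not pass the test (edgeR adjusted p = 0.421). Counts per gene join all transcripts, so the epithelial and the other forms of DST and PLEC cannot be told apart.

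LAD1 encodes ladinin, a protein of the anchoring filaments under the junction, and lies on chromosome 1 from 201349966 to 201368669 (minus strand). It had 172 and 131 CPM (3794 and 2977 reads) in MCF10A and 0.128 and 0.134 CPM, or 3 reads, in each G12V library. The ratio of the mean levels was 1158, with a 95% interval of 532 to 3156 from the exact Poisson interval of the 6 reads in G12V cells, which covers counting error only. It was DE (edgeR adjusted p = 0.000337), and 0.0626% of the tested genes had a lower log2 fold change.

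The bases before its start (chr1:201368453-201368702) are shown for the E-box letters that begin 61 and 35 bases before the start, in capitals. They hold no AP-1 letters.
LAD1: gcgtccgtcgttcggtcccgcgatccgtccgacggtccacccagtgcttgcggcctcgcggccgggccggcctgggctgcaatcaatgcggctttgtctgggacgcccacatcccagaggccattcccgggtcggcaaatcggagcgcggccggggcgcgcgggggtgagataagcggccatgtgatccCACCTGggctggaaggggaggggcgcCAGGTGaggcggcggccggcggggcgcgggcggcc

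Ranked per kb of exon, the order of the genes changed as well. Exon lengths join all annotated transcripts of a gene, so the places depend on the forms expressed. In MCF10A, ITGB4 was the highest of the 9 with 473 ± 226 CPM per kb (SD, n = 2), followed by LAMB3 with 245 ± 22.4, ITGA6 with 129 ± 17.1, COL17A1 with 110 ± 31.1 and PLEC with 102 ± 10.6 CPM per kb, and in the last 3 each gene overlapped with the next. In G12V cells, LAMB3 was the highest with 492 ± 328 CPM per kb, followed by ITGB4 with 93.6 ± 57.3, PLEC with 76.6 ± 14.1 and CD151 with 50.0 ± 0.17 CPM per kb, where ITGB4 overlapped with PLEC. COL17A1 had gone from the fourth place to the eighth with 0.307 ± 0.137 CPM per kb.

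**Figure D3:**
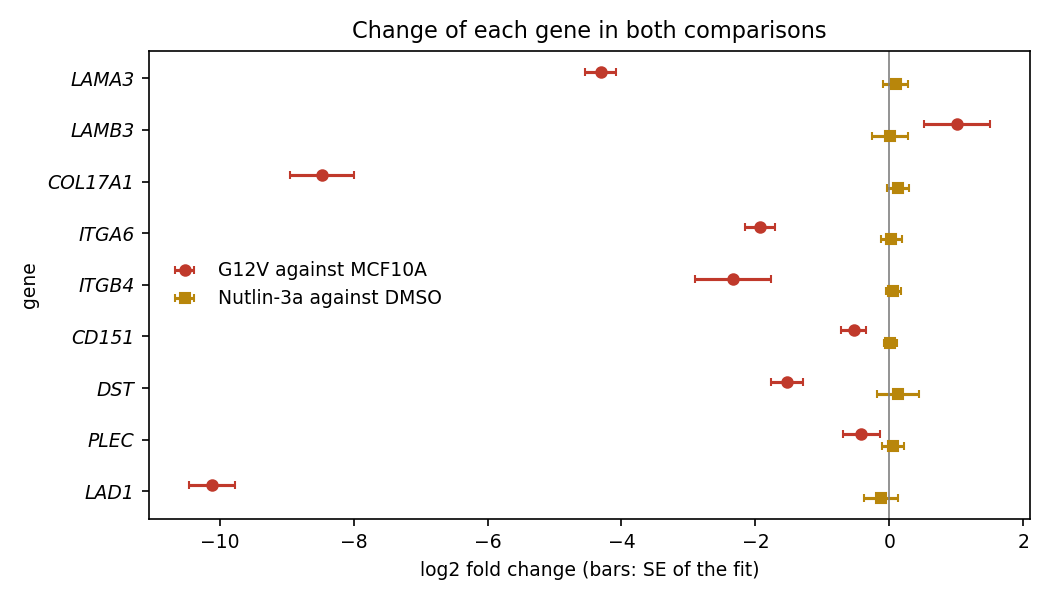
Log2 fold change of each gene with its SE (bars) in G12V against MCF10A cells (red circles) and in Nutlin-3a against DMSO (ochre squares). In G12V cells the values run from 1.01 for LAMB3 to -10.12 for LAD1, whose fitted value rests on 3 reads per G12V library, and with Nutlin-3a all 9 genes lie between -0.12 and 0.13.

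After 4 h of Nutlin-3a no difference was detectable in these genes. Of the 9 genes, 0 were DE in edgeR's test and 0 had an unadjusted p under 0.05, and 0 were DE with DESeq2 or edgeR's exact test. Among all genes 3.42% had an unadjusted p under 0.05 and 0.17% were DE, 23 in number, CDKN1A and MDM2 among them. At these low shares, 0 of 9 does not set these genes apart from the rest. Blocking on the replicate number gave 165 DE genes and again 0 of the 9. The groups overlapped in all 9 genes, while 8.07% of all genes did not overlap. Within the 3 pairs of same-numbered libraries, COL17A1 and LAMB3 were higher with Nutlin-3a in every pair and LAD1 was lower in every pair, and 32.8% of all genes likewise went 1 way in every pair. The log2 fold change was above 0 in 8 genes and below 0 in LAD1, and the median over the 9 was 0.06 against 0.01 over all tested genes.

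LAMB3 had 3824, 4374 and 2348 CPM in DMSO replicates 1, 2 and 3 and 3832, 4386 and 2406 CPM in Nutlin-3a replicates 1, 2 and 3. Replicate 3 was the lowest in either treatment. The log2 fold change was 0.01 (SE 0.27, edgeR adjusted p = 1.00). LAMA3 had 2182, 2540 and 2189 CPM in DMSO and 3068, 2531 and 1788 CPM in Nutlin-3a, a log2 fold change of 0.10 (SE 0.19). Per kb of exon, LAMB3 was 5.46, 5.37 and 3.34 times as high as LAMA3 in DMSO and 3.89, 5.40 and 4.20 times as high in Nutlin-3a, so the balance of the chains overlapped too.

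COL17A1, whose start region has letters of the p53 family half-site, had 795, 1047 and 1175 CPM in DMSO and 953, 1132 and 1205 CPM in Nutlin-3a. Its log2 fold change was 0.13 (SE 0.16, edgeR adjusted p = 1.00). The study also lists COL17A1 among its primers for real-time PCR. For some genes it shows the response of MCF10A cells to Nutlin-3a by real-time PCR and by RNA-seq. Those genes were lower after HRas transformation and had a p53 motif in regions that lost accessibility. The study reports that genes of this kind had the highest response of the sets it compared. Its figure was not read for COL17A1, and no PCR result was compared here. In LAD1 the levels were 140, 150 and 219 CPM in DMSO and 121, 132 and 214 CPM in Nutlin-3a, with replicate 3 the highest in either treatment. DST was the most variable of the 9 in DMSO though not in Nutlin-3a, at 159, 252 and 424 CPM in DMSO and 286, 253 and 376 CPM in Nutlin-3a (log2 fold change 0.13, SE 0.32). CD151 was the steadiest, at 269–274 and 255–293 CPM (log2 fold change 0.01, SE 0.10).

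ITGA6 had 853–968 CPM in DMSO and 709–1030 CPM in Nutlin-3a, ITGB4 1616–1764 and 1616–1905 CPM, and PLEC 2956–3282 and 2577–4021 CPM. In this annotation GALK1 overlaps ITGB4 and POLR2L overlaps CD151 on the other strand, and since the strand setting of the counting is not given in the sources used here, reads of ITGB4 and CD151 may be shared with these genes.

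**Figure D4:**
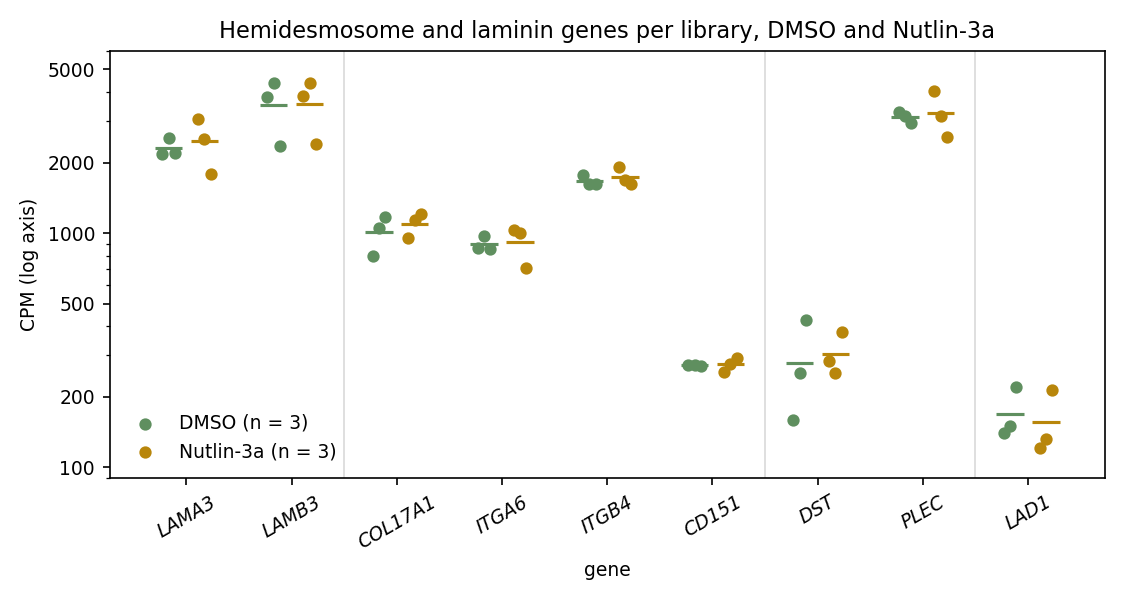
Level of each gene in CPM (log axis) in the 3 DMSO libraries (green) and the 3 Nutlin-3a libraries (ochre), in order of replicate from left to right, with a bar at the mean of each group. The points of the 2 treatments overlap in all 9 genes, and replicate 3 is the lowest in LAMB3 in either treatment, at 2348 and 2406 CPM.

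Parental cells of the 2 experiments did not have the same levels. LAMA3 was at 850 ± 28.4 CPM (SD, n = 2) in untreated cells and 2304 ± 205 CPM (SD, n = 3) in DMSO, and LAMB3 at 1137 ± 104 and 3516 ± 1047 CPM. DST went the other way, with 758 ± 120 CPM in untreated MCF10A and 278 ± 134 CPM in DMSO. The DST mean of G12V cells, 264 ± 29.4 CPM, was near that of DMSO. LAD1, COL17A1, LAMA3 and ITGA6 had DMSO means of 170, 1005, 2304 and 894 CPM, above their G12V levels. The tables were counted on different annotations and normalized separately, so experiment, annotation and treatment cannot be told apart and no test was made. LAMA3 over LAMB3 per kb of exon was alike in both, at log2 ratios of -2.06 ± 0.18 (SD, n = 2) and -2.21 ± 0.40 (SD, n = 3).

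Of 20 other genes of the basement membrane and its anchoring, 19 were tested in G12V cells, where 2 were down-regulated, 2 up-regulated and 15 not DE, and their median log2 fold change was -0.14. COL7A1, which encodes the collagen of the anchoring fibrils that laminin-332 is tied to, fell from 121 ± 40.5 to 2.61 ± 0.91 CPM (SD, n = 2; log2 fold change -5.53, SE 0.39, edgeR adjusted p = 0.00141). The other was COL4A6, which had a log2 fold change of -1.14 (SE 0.22). Up-regulated were COL4A1, a collagen IV chain, from 59.6 ± 16.9 to 195 ± 60.9 CPM (log2 fold change 1.71, SE 0.31), and FRAS1, from 14.9 ± 1.69 to 44.9 ± 12.9 CPM (log2 fold change 1.59, SE 0.27). Chains of other laminins were not DE, with log2 fold changes of 0.09 for LAMA5, -0.08 for LAMB1, -0.45 for LAMB2 and 0.37 for LAMC1. Nor were ITGA3 and ITGB1, the chains of the other laminin-332-binding integrin, at 0.00 and -0.41. In parental cells given DMSO, normalized separately, COL4A1 had 175 ± 40.6 CPM, near its G12V level. COL7A1 and COL4A6 had 56.5 and 123 CPM in DMSO, above their G12V levels, and FRAS1 had 12.5 CPM, below its G12V level.

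Of 7 genes, the keratins anchored at these junctions and plakins other than DST and PLEC, 5 were down-regulated and 2 were not DE. The list does not make these plakins parts of the hemidesmosome. KRT14, a basal keratin, had 412 ± 14.4 CPM in MCF10A and at most 3 reads in a G12V library (edgeR adjusted p = 0.000337), and its partner KRT5 had 4195 ± 680 and 1078 ± 201 CPM (log2 fold change -1.96, SE 0.32). The plakins EPPK1, PPL and DSP had log2 fold changes of -4.46 (SE 0.54), -2.84 (SE 0.44) and -2.50 (SE 0.30), while EVPL and MACF1 had 0.13 and 0.16. Of 10 other tetraspanins, 3 were down-regulated, with log2 fold changes of -7.52 (SE 0.32) for TSPAN1, -3.87 (SE 0.27) for CD82 and -1.48 (SE 0.28) for CD9, and 7, like CD151, were not DE. In parental cells given DMSO, normalized separately, PPL had 23.0 ± 8.57 CPM, against 30.7 ± 10.6 CPM in G12V cells. DSP, EPPK1, KRT5 and KRT14 had 591, 147, 3922 and 90.2 CPM in DMSO, above their G12V levels.

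Of 6 transcription factors of the basal epithelial programme and its repressors, 5 were tested. GRHL2, a gene that epithelial cells usually express, was listed at 0 counts in all 10 libraries of both tables, which does not show that it is absent from these cells. TP63, the p63 gene that basal epithelia depend on, had 167 ± 66.7 CPM in MCF10A and 0.151 ± 0.0881 CPM in G12V cells (edgeR adjusted p = 0.000788), SNAI2 had a log2 fold change of -2.49 (SE 0.26) and KLF4 of -1.27 (SE 0.23). Among the listed E-box-binding repressors, ZEB1 and ZEB2 rose, by 2.98 (SE 0.31) and 1.97 (SE 0.25) on the log2 scale. SNAI2, the other such repressor listed, fell, as given above. Whether any of these transcription factors acts on the 9 genes was not tested. With Nutlin-3a, 0 genes of these 4 lists were DE in edgeR's test with or without the replicate block, and TP63 had 22.3 ± 4.56 CPM in DMSO and 16.2 ± 4.87 CPM in Nutlin-3a (SD, n = 3).

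LAMB3 lies between genes that changed in opposite directions. The nearest tested gene on its 5′ side, HSD11B1, which encodes an enzyme that activates cortisol and lies 33.7 kb away on the other strand, rose from 0.545 and 0.749 CPM in MCF10A to 71.7 and 144 CPM in G12V cells (log2 fold change 7.37, SE 0.49, edgeR adjusted p = 0.00126). On the other side, 182 kb away, MIR205HG, the host transcript of an epithelial microRNA, fell from 231 and 250 CPM to 0.385 and 0.0446 CPM (adjusted p = 0.000788). In the Nutlin-3a experiment HSD11B1 had 18.2–23.5 CPM in DMSO and 15.4–26.9 CPM in Nutlin-3a in the separately normalized table.

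Of the neighbours of the other genes, GALK1, which begins 118 bases beyond the end of ITGB4 on the other strand, rose from 6.91 and 3.26 CPM to 38.0 and 44.4 CPM (log2 fold change 3.02, SE 0.39, edgeR adjusted p = 0.00826) while ITGB4 was lower. The plakin gene EPPK1, next to PLEC, TNNI1, next to LAD1, and FAM83B, next to DST at 1513 kb, were down-regulated, with log2 fold changes of -4.46 (SE 0.54), -2.86 (SE 0.47) and -3.19 (SE 0.29). Neighbours on either side of COL17A1, LAMA3, ITGA6 and CD151 were not DE. Next to COL17A1, SLK and SFR1 had log2 fold changes of -0.64 (SE 0.20) and -0.22 (SE 0.31), and next to LAMA3, ANKRD29 and TTC39C had 1.07 (SE 0.30) and 0.02 (SE 0.21).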

How the data were processed

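Total RNA was selected for poly(A) and sequenced by the authors, who aligned reads to hg19 with TopHat, used HTSeq to count them and deposited raw counts per gene, with no normalization. A separate table holds each experiment, and the annotations and the strand setting are not given in the sources used here. Each table was fitted by itself with edgeR 4.0.16 (limma 3.58.1, R 4.3.3) after filterByExpr, TMM scaling and the quasi-likelihood test, with Benjamini-Hochberg adjustment over all tested genes. The prior count of the log2 fold changes was 0.125, and the SE was taken as their size divided by the square root of F. Levels per kb use the exons joined over the GENCODE transcripts of a gene on GRCh37. The fits were also run on simulated counts, drawn without replicate pairs. The outcome is not reported here and is no evidence for the calls. Alternatives tried were edgeR's exact test, DESeq2 1.42.0, other scalings and filters, a prior count of 2, an unadjusted p with a 1.3-fold change, the replicate block and leaving out each library.

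The 9 genes and the lists were chosen with earlier results of these data known. Named were all 9 genes, up to 4 DE genes of each list by the size of their change, and neighbours that were DE, and genes outside this rule were chosen after their values were seen. Some genes that the rule or the lists hold are not reported here. The labels speak of biological replicas without saying whether cultures were separate, so p-values measure the spread between these libraries. The Nutlin-3a and DMSO libraries carry replicate numbers in the labels. Same-numbered libraries deviated together from their group means (correlations of 0.65, 0.68 and 0.70), and they were taken as pairs. Differently numbered ones had correlations of -0.52 to -0.22. Deviations from a group mean cancel out within the group, so these negative values are no separate support for the pairs.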

Additional observations from a re-analysis of the deposited data

How the results depend on the processing

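Between MCF10A and G12V cells, 1575 genes (11.0% of those tested) and 5 of the 9 were DE. Given as a share of the same tested genes, it was 17.6% with edgeR's exact test and 25.6% by an unadjusted p with a 1.3-fold change, and of the 9 it was 5 to 7 in these and the other settings without a block. With the replicate block it was 28.9% and 8 of the 9. These were the 5 and also ITGB4 (log2 fold change -2.40, adjusted p = 5.01e-07), CD151 (-0.53, adjusted p = 0.00985) and, higher in G12V cells, LAMB3 (0.83, adjusted p = 0.0219). The 2 pairs of the block share a number, and their deviations from the group means correlated (0.55). With 2 libraries a group that correlation is a single value, and the labels state no pairing. Leaving out a library gave 0 to 14.8% and 0 to 6 of the 9, with 0 of both without MCF10A replicate 1, where the lone MCF10A library is assumed to vary like G12V. With Nutlin-3a, 23 genes (0.17%) were DE, and the share was 0.643% with DESeq2, 0.621% with edgeR's exact test, 0.732% without a filter, 2.45% by the unadjusted rule, 1.22% with the replicate block and 0.0517% to 0.0813% without a library, while 0 of the 9 were DE in all of these. The block called 0 genes of the 9 and of the 4 lists there. Log2 fold changes near 0 changed sign with library totals alone, to -0.023 for CD151, -0.0038 for ITGA6 and -0.027 for LAMB3. When a library was left out they ran from -0.018 to 0.25 for COL17A1, -0.066 to 0.18 for ITGA6, -0.012 to 0.11 for ITGB4, -0.0355 to 0.066 for CD151, -0.093 to 0.28 for LAMA3, -0.21 to 0.22 for LAMB3, -0.15 to 0.57 for DST, -0.12 to 0.20 for PLEC and -0.42 to 0.11 for LAD1. The cause was not tested. Depth limits the size of the change in LAD1, which had 3 reads in each G12V library.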
